A study of Mus musculus with 8 samples.

Results

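Fibroblast growth factor (FGF) signalling was followed through 10 genes in the mouse embryonic stem cell line R1 during exposure to ML-792, an inhibitor of the enzyme that starts the attachment of SUMO to proteins. The genes were chosen by symbol as the ligand Fgf4, the receptors Fgfr1 and Fgfr2, and genes that respond to or restrain the ERK kinase cascade: Spry2, Spry4, Dusp4, Dusp6, Etv4, Etv5 and Egr1. Each symbol matched 1 row of the count table, so that 10 of its 36920 genes were followed, and all 10 were among the 19173 genes with enough reads to test. RNA sequencing covered 8 libraries, 2 in each of 4 groups. All were R1 cells grown in serum with LIF. The D1 libraries are labelled control and precede the first exposure, the D3 libraries are labelled ML-792 and close it, the D8 libraries are labelled control and precede the second exposure, and the D10 libraries are labelled ML-792 and close the second. Each exposure lasted 48 h at a dose that the labels write as 2.5 mM, a unit that could not be checked here and may be a slip for a smaller one, and D8 falls 5 days after D3. The time tag of D1 replicate 2 reads D0 while its title reads D1, and it was kept at D1. No library at D3 or D10 was labelled control, so ML-792 and 48 h of further culture cannot be told apart in either exposure.

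In mouse embryonic stem cells FGF4 is an autocrine ligand. It binds FGF receptors, which act through the adaptor FRS2, RAS, RAF and MEK to activate the ERK kinases, and this route helps cells leave the naive pluripotent state and, in the embryo, directs part of the inner cell mass to primitive endoderm. ERK activity switches on genes that oppose it, among them the Sprouty proteins, which act upstream of ERK, and the dual-specificity phosphatases, which remove phosphate from ERK itself. It also induces the ETS factors Etv4 and Etv5 and the immediate early gene Egr1, so that these transcripts are widely used as read-outs of the pathway. RNA levels do not measure the phosphorylation of ERK.

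The libraries held 21040992 to 40835518 reads in genes. All 8 embryonic stem cell markers examined were present in every library, from 58 CPM (counts scaled to the size of the library after TMM normalisation) for Klf4 at D10 to 1370 CPM for Pou5f1 at D1. Of 10 fibroblast markers, Postn, Lum, Dcn and Col3a1 were at 0.203 CPM or less in each library, and Fbn1 was the highest, at 10.6 to 28.9 CPM. D8 replicate 2 stood apart most in base composition. The deviation of its coding genes from the mean of all libraries followed GC content at a Spearman rho of 0.59 across 12690 genes, against -0.378 to 0.108 in the other libraries. The D3 libraries were at -0.342 and -0.314, against -0.118 and 0.108 at D1. The D10 libraries were at -0.378 and 0.0303, against 0.0954 in D8 replicate 1. Whether both libraries of a group came from different cultures is not stated in the labels. Every p-value therefore rests only on the spread between libraries of a group, which may be technical. That spread was estimated in 1 fit of all 4 groups, with sharing across genes. Tests were edgeR's quasi-likelihood test on the counts, with Benjamini-Hochberg adjustment over all 19173 genes. Genes are described as called, or as having risen or fallen, where that adjusted p lay under 0.05. In such bulk samples fewer cells of a type and less RNA per cell cannot be told apart.

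RefSeq's table of promoter windows on GRCm38.p6, which run from 250 bases before to 50 bases after a gene's start, held 5 of the 10 genes: Fgf4, Fgfr2, Spry2, Dusp6 and Etv5. The windows of Fgf4, Fgfr2 and Spry2 are printed because these were called in both exposures, one of them lower and the others higher. Capitals mark matches, on either strand, to CCAAT (the CCAAT box, bound by NF-Y), GGGCGG (the GC box, bound by Sp1-type factors) and CCGGAA (a core bound by ETS factors). The windows are, on the plus strand, chr7:144861136-144861435 for Fgf4 and, on the minus strand, chr7:130266759-130267058 for Fgfr2 and chr14:105896770-105897069 for Spry2, each written from 5′ to 3′ along its gene.
Fgf4: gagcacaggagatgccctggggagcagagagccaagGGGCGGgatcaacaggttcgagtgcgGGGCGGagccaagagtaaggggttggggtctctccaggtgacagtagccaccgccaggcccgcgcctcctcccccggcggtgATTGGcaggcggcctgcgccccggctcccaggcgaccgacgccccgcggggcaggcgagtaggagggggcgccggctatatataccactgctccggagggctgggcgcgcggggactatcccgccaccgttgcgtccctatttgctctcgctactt
Fgfr2: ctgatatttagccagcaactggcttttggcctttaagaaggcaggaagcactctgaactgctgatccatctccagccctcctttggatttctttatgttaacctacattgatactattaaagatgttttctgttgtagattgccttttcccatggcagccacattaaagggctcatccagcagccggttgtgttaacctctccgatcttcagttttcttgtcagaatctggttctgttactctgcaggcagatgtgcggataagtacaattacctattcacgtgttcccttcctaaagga
Spry2: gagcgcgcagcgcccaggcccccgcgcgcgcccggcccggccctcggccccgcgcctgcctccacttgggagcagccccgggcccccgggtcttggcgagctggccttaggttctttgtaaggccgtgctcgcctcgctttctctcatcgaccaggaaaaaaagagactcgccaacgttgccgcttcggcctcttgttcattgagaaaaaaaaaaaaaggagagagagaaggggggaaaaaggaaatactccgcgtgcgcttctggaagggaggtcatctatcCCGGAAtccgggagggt
The Fgf4 window held 2 GC boxes and 1 CCAAT box, which reads as ATTGG on the strand shown. The Spry2 window held 1 ETS core and the Fgfr2 window none of the 3 motifs. Among the windows not printed, that of Dusp6 held 1 CCAAT box, and of the pair of Etv5 windows one held 3 CCAAT boxes and 3 GC boxes and the other 1 CCAAT box. Of 32851 RefSeq promoter windows of the same length, 37.4% held CCAAT, 35.7% held GGGCGG and 14.9% held CCGGAA. GC made up 69.7% of the Fgf4 window, 43.7% of the Fgfr2 window and 62.7% of the Spry2 window.

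Levels of different genes were compared per kilobase of exon, with exon lengths from GENCODE M21 that join all annotated transcripts of a gene. At D1 Fgf4 (69.5 ± 10.8 CPM per kb, SD, n = 2) and Etv4 (63.8 ± 1.22) were the most abundant and did not differ beyond their spread. Etv5 (40.9 ± 0.279), Spry2 (33.6 ± 0.7), Spry4 (28.6 ± 2.74) and Dusp6 (24.8 ± 2.75 CPM per kb) followed, and of these Spry4 and Dusp6 lay within their spread of each other. Fgfr1 (6.8 ± 1.61), Dusp4 (3.65 ± 1.44), Egr1 (0.637 ± 0.509) and Fgfr2 (0.201 ± 0.0296 CPM per kb) were low, with Egr1 and Fgfr2 within their spread. At D10 the order of the same levels was led by Spry2 (83.5 ± 4.92 CPM per kb), with Spry4 (53.5 ± 0.385) and Etv4 (49.3 ± 4.18) next and not separated by their spread. Fgf4 had dropped below Dusp4 (11.2 ± 1.94 against 21.9 ± 2.3 CPM per kb), while Fgfr2 was still the lowest (1.58 ± 0.277). Fgfr1 exceeded Fgfr2 per kilobase in all 4 groups.

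**Figure D1:**
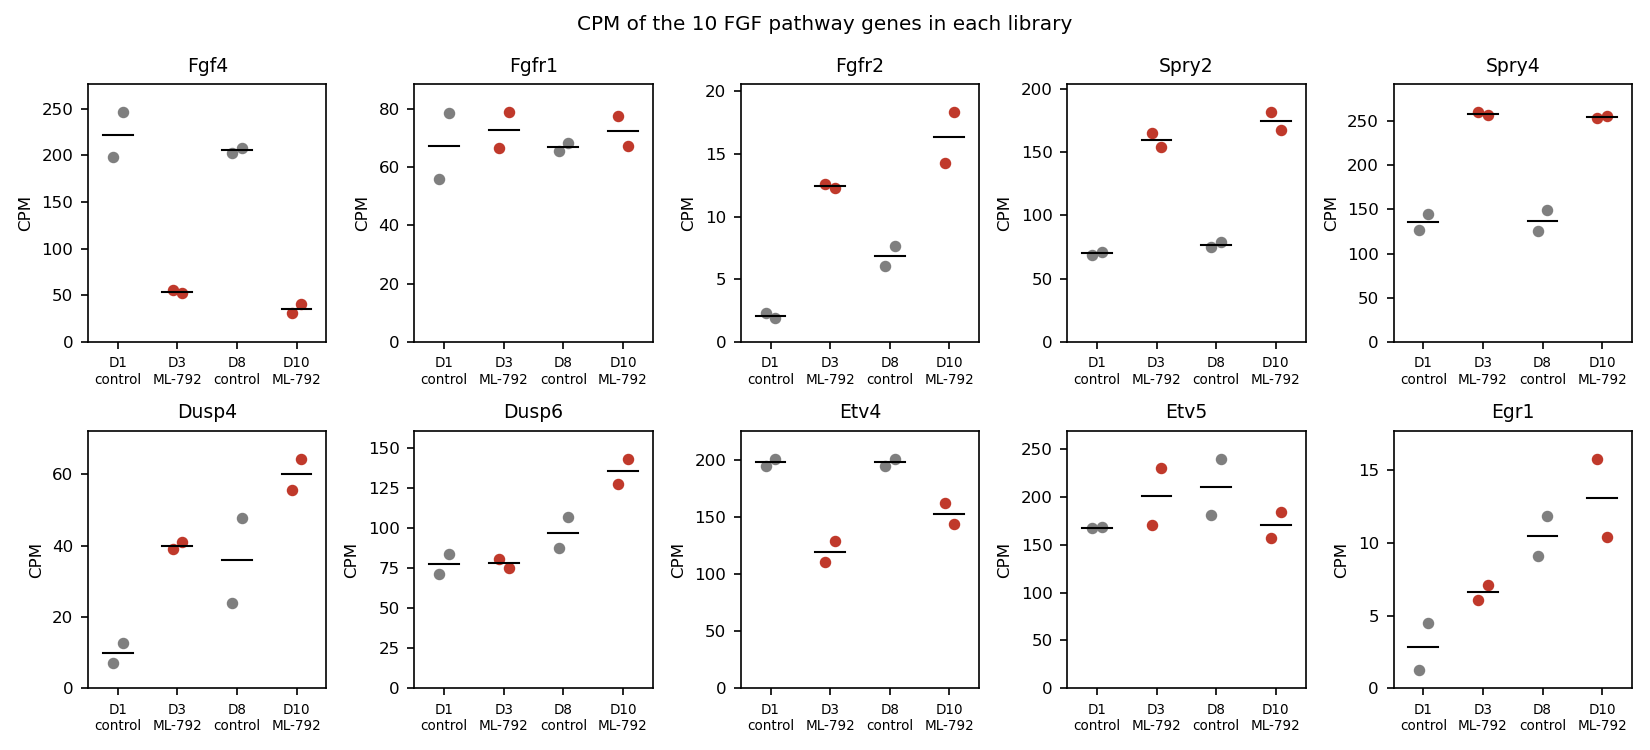
CPM of each of the 10 genes in the 8 libraries, with the 4 groups on the horizontal axis; points are libraries, lines are group means, grey marks control and red ML-792. Fgf4 sat at 31.3 to 55.1 CPM in the 4 ML-792 libraries, under the 198 to 246 CPM of the 4 control libraries, whereas every ML-792 library exceeded every control library for Spry2, Spry4 and Fgfr2.

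The ligand fell in both exposures. Fgf4 (ENSMUSG00000050917, mm10 chromosome 7, 144847367 to 144865243) had 55.1 and 52.2 CPM in the D3 libraries, against 198 and 246 CPM in the D1 libraries. It had 31.3 and 40.1 CPM in the D10 libraries, against 203 and 208 CPM in the D8 libraries. Both libraries of each ML-792 group thus lay far under both of the control group before them. The log2 fold change was -2.05 ± 0.17 (SE) for D3 over D1 (adjusted p = 0.000912) and -2.52 ± 0.17 for D10 over D8 (adjusted p = 0.000415). The span that GENCODE gives Fgf4 opens upstream of RefSeq's start at 144861386, the start used for the window printed above. The summed level of 8 markers of embryonic stem cells, which express Fgf4, was lower too. It was 4111 and 4133 CPM at D3, against 4976 and 5367 CPM at D1, with 1 marker called lower, where 5.1% of all genes were. At D10 it was 3091 and 3456 CPM, against 4958 and 4969 CPM at D8, with 5 called lower, where 7.65% of all genes were. In each exposure 0 were called higher. Sox2 (0.1 ± 0.16, then 0.001 ± 0.16) and Sall4 (0.31 ± 0.12, then -0.09 ± 0.12) were called in neither. The part of these markers in the Fgf4 result was not tested.

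Of the receptors, Fgfr2 rose in both exposures and Fgfr1 was called in neither. Fgfr1, the receptor with the higher level here, had 66.5 and 78.9 CPM at D3, against 55.9 and 78.4 CPM at D1, and 77.4 and 67.3 CPM at D10, against 65.7 and 68.3 CPM at D8. These values overlapped in both exposures. Its log2 fold change was 0.11 ± 0.18 in the first exposure (adjusted p = 0.732, 95% interval -0.298 to 0.525) and 0.11 ± 0.18 in the second (adjusted p = 0.715, 95% interval -0.3 to 0.521). Fgfr2, which in the blastocyst is found mainly in primitive endoderm and trophectoderm, had 12.6 and 12.3 CPM at D3, against 2.3 and 1.86 CPM at D1. It had 14.3 and 18.4 CPM at D10, against 6.02 and 7.66 CPM at D8. The groups did not overlap in either exposure. The log2 fold change was 2.59 ± 0.25 (adjusted p = 0.00156) in the first exposure and 1.26 ± 0.22 (adjusted p = 0.0083) in the second. Fgfr2 was measured from 48 to 772 reads per library. GENCODE M21 draws the gene from 130162451 to 133123350 on chromosome 7, a span that takes in other genes, and 314 of its 10328 exon bases are shared with Ctbp2.

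Both Sprouty inhibitors rose in both exposures. Spry2, on chromosome 14, had 165 and 154 CPM at D3, against 69 and 71.1 CPM at D1, and 182 and 167 CPM at D10, against 74.8 and 78.7 CPM at D8. Its log2 fold change was 1.19 ± 0.12 (adjusted p = 0.00197) and then 1.18 ± 0.12 (adjusted p = 0.00126), that is, 2.28-fold and 2.27-fold. Spry4, on chromosome 18, had 260 and 257 CPM at D3, against 127 and 145 CPM at D1. It had 253 and 256 CPM at D10, against 125 and 149 CPM at D8. Its log2 fold change was 0.93 ± 0.14 (adjusted p = 0.00527) and 0.89 ± 0.14 (adjusted p = 0.00465). The ML-792 libraries of both genes lay above all control libraries. Spry4 missed the threshold at D3 without D1 replicate 1 (adjusted p = 0.0565), the highest of its 16 alternatives, whose lowest was 1.92e-06.

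Of the phosphatases, Dusp4 rose in the first exposure and Dusp6 was called in neither. Dusp4, which encodes a nuclear phosphatase of ERK and other MAP kinases, had 39.1 and 41 CPM at D3, against 7.22 and 12.8 CPM at D1, a log2 fold change of 1.99 ± 0.35 (adjusted p = 0.00903). It had 55.5 and 64.5 CPM at D10, against 23.9 and 47.9 CPM at D8, where the difference of 0.74 ± 0.33 did not pass (adjusted p = 0.161). The D8 libraries of this gene differed 2-fold from each other, and D8 replicate 2 was the higher one. The second exposure gave 0.33 without D8 replicate 1 (adjusted p = 0.415) and 1.3 without D8 replicate 2 (0.0318), and with a correction for GC content and length 1.03 (adjusted p = 0.017), where all alternatives spanned an adjusted p of 0.0017 to 0.415. The first exposure missed the threshold without D1 replicate 1 (adjusted p = 0.0663) or D3 replicate 1 (0.0514), and its alternatives spanned 1.5e-17 to 0.0663. Dusp6, which encodes the cytoplasmic phosphatase most specific to ERK, had 80.7 and 75.4 CPM at D3, against 71.5 and 83.7 CPM at D1. The D1 libraries enclosed those of D3, with a log2 fold change of 0.01 ± 0.15 (adjusted p = 0.981, 95% interval -0.337 to 0.353). At D10 it had 128 and 144 CPM, against 87.5 and 107 CPM at D8. Those groups did not overlap, but the difference of 0.48 ± 0.15 missed the threshold (adjusted p = 0.063). It was 0.6 without D8 replicate 2. With correction for GC content and length it was 0.43 and passed (adjusted p = 0.0234, with alternatives between 0.0094 and 0.241).

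Of the transcription factors, Etv4 was lower after the first exposure. It had 111 and 129 CPM at D3, against 195 and 201 CPM at D1, a log2 fold change of -0.72 ± 0.13 (adjusted p = 0.0105). At D10 it had 162 and 144 CPM, against 195 and 201 CPM at D8, and the difference of -0.37 ± 0.13 did not pass (adjusted p = 0.0876). Both ML-792 groups lay under both control groups. The call at D3 was lost without D1 replicate 1 (adjusted p = 0.0617), D1 replicate 2 (0.0831) or D3 replicate 1 (0.11), and the lowest of its alternatives was 0.000332. Correction for GC content and length brought the second difference to -0.03 (adjusted p = 0.905, with alternatives from 0.0475 upwards). Etv5, the close relative of Etv4, had 171 and 230 CPM at D3, against 167 and 169 CPM at D1, and 157 and 184 CPM at D10, against 181 and 240 CPM at D8. Its log2 fold changes of 0.26 ± 0.19 (adjusted p = 0.422) and -0.3 ± 0.19 (adjusted p = 0.312) did not pass. Egr1, a zinc finger gene that ERK induces within minutes, was scarce, with 26 to 438 reads per library. It had 6.06 and 7.14 CPM at D3, against 1.24 and 4.47 CPM at D1, and 15.8 and 10.4 CPM at D10, against 9.09 and 11.8 CPM at D8. The log2 fold changes of 1.17 ± 0.48 (adjusted p = 0.153) and 0.32 ± 0.45 (adjusted p = 0.669) did not pass. The D1 libraries differed more in ratio than those of any other group, and the first value was 0.54 without D1 replicate 1 (adjusted p = 0.444) and 2.41 without D1 replicate 2, where it passed (0.0437). Its lowest adjusted p over all alternatives was 0.00263.

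The 10 genes were chosen with earlier results of these data known, so the counts that follow are descriptions. In all, 6 of the 10 genes were called at D3 over D1, where 13% of all genes tested were called. Of these, 4 rose (Fgfr2, Spry2, Spry4 and Dusp4), where 7.92% of all genes did, and 2 fell (Fgf4 and Etv4), where 5.1% did. At D10 over D8, 4 were called, where 16.9% of all genes were. Here 3 rose (Fgfr2, Spry2 and Spry4), against 9.27% of all genes, and 1 fell (Fgf4), against 7.65%. The libraries of the groups did not overlap for 8 of the 10 genes in the first exposure, against 64.8% of all genes, and for 7 in the second, against 54.9%. The median log2 fold change over the 10 genes was 0.59 in the first exposure and 0.4 in the second, while over all genes tested it was 0 and 0.03 when rounded. Without D1 replicate 1 the count in the first exposure was 3, with Spry4, Dusp4 and Etv4 lost, and the count over all 19173 genes was 669 in place of 2496.

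**Figure D2:**
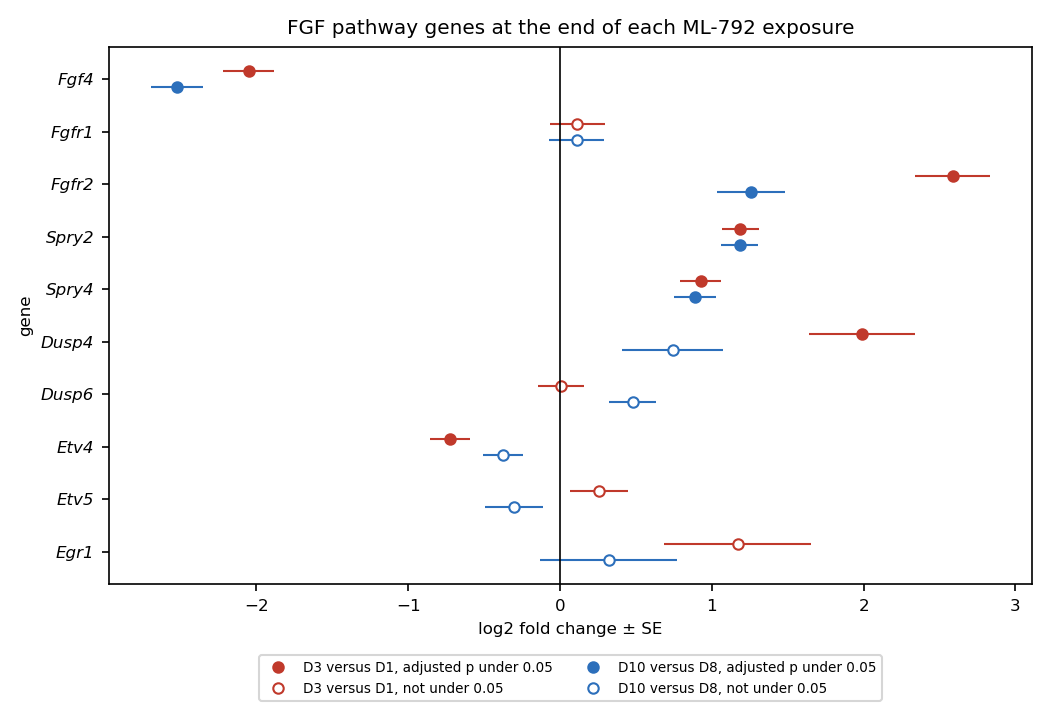
Log2 fold change of the 10 genes in the first exposure (D3 over D1, red) and the second (D10 over D8, blue); points are estimates, bars are ± 1 SE, and filled points passed an adjusted p of 0.05. Fgf4 lay at -2.05 and -2.52, Spry2 at 1.19 and 1.18, and the Fgfr1 points at 0.11 in both.

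The responses to both exposures were compared by testing their difference, the log2 fold change of the second minus that of the first. It was -1.33 ± 0.33 for Fgfr2 and -1.25 ± 0.47 for Dusp4. Neither passed, with unadjusted p of 0.00303 and 0.0276 and an adjusted p of 1 for each by edgeR. For Spry2 the difference lay within a 95% interval of -0.393 to 0.387 and for Spry4 within -0.472 to 0.401. Fgf4 gave -0.47 ± 0.23 (95% interval -0.996 to 0.046). None of the 19173 genes tested passed by edgeR, while 575 of them (3%) had an unadjusted p under 0.05, and DESeq2 called 3, none of them among the 10. With no filter on low counts, edgeR called 66 genes, Dusp4 among them (-1.24, adjusted p = 0.0181).

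D8 was compared with D1 and with D3 to see which levels stood where after 5 days without the inhibitor. These comparisons share their D1, D3 and D8 libraries with the exposures. No D8 library was labelled as never exposed. The earlier exposure, its withdrawal and the days of further culture therefore cannot be told apart in any difference at D8, for these genes or for cell type markers. Fgf4 at D8 was 3.83-fold the level at D3 (log2 1.94 ± 0.17, adjusted p = 0.000555), and its difference from D1 was -0.11 ± 0.16 (adjusted p = 0.785, 95% interval -0.477 to 0.254). Spry2 fell at D8 relative to D3 by 1.06 ± 0.12 on the log2 scale (adjusted p = 0.00125) and Spry4 by 0.91 ± 0.14 (adjusted p = 0.00288). Against D1 they stood at 0.13 ± 0.12 (adjusted p = 0.666) and 0.01 ± 0.14 (adjusted p = 0.977). Etv4 was higher at D8 than at D3 by 0.72 ± 0.13 (adjusted p = 0.00632), and its 95% interval against D1 ran from -0.299 to 0.299. With correction for GC content and length the Etv4 difference from D3 was 0.29 (adjusted p = 0.183), and the call was also lost without D3 replicate 1 (adjusted p = 0.0746).

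Fgfr2 took an intermediate level. At D8 it was 3.31-fold the D1 level (log2 1.73 ± 0.24, adjusted p = 0.046) and 0.551-fold the D3 level (-0.86 ± 0.22, adjusted p = 0.0265). It was the only one of the 10 called at D8 over D1, a comparison in which 0.177% of all genes were called, 0.141% higher and 0.0365% lower. That call was lost without any single library other than D8 replicate 1 (adjusted p 0.0623 to 0.515), where the lowest of all alternatives was 1.56e-06. The call against D3 was lost without either D3 library (0.131 and 0.105) or D8 replicate 1 (0.0781), with 0.0049 the lowest of its alternatives. Dusp4 at D8 lay at 1.83 ± 0.35 against D1 (adjusted p = 0.112) and -0.16 ± 0.33 against D3 (adjusted p = 0.768), and DESeq2 called the first (adjusted p = 1.84e-05), while its alternatives spanned 5.66e-15 to 0.822. Egr1 at D8 lay at 1.83 ± 0.48 against D1 (adjusted p = 0.218), with both D8 libraries above both D1 libraries, and DESeq2 called it too (adjusted p = 0.00371, with alternatives between 2.97e-07 and 0.906). The Egr1 value against D1 was 1.22 without D1 replicate 1 and 3.07 without D1 replicate 2. Dusp6, Etv5 and Fgfr1 were called in neither. Against D3, correction for GC content and length brought Fgfr1 to -0.46 (adjusted p = 0.0474, with alternatives between 0.0288 and 0.981) and Dusp6 to 0.34 (0.0473, with alternatives between 0.0247 and 0.476). Dusp6 also passed there without D8 replicate 1 (0.46, adjusted p = 0.0487). At D8 over D3, 5 of the 10 genes were called, where 22.5% of all genes were, 2 of them higher (11.3% of all genes) and 3 lower (11.2%). The libraries did not overlap for 6 of the 10 genes at D8 over D1, against 41.9% of all genes, and for 7 at D8 over D3, against 63.5%.

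**Figure D3:**
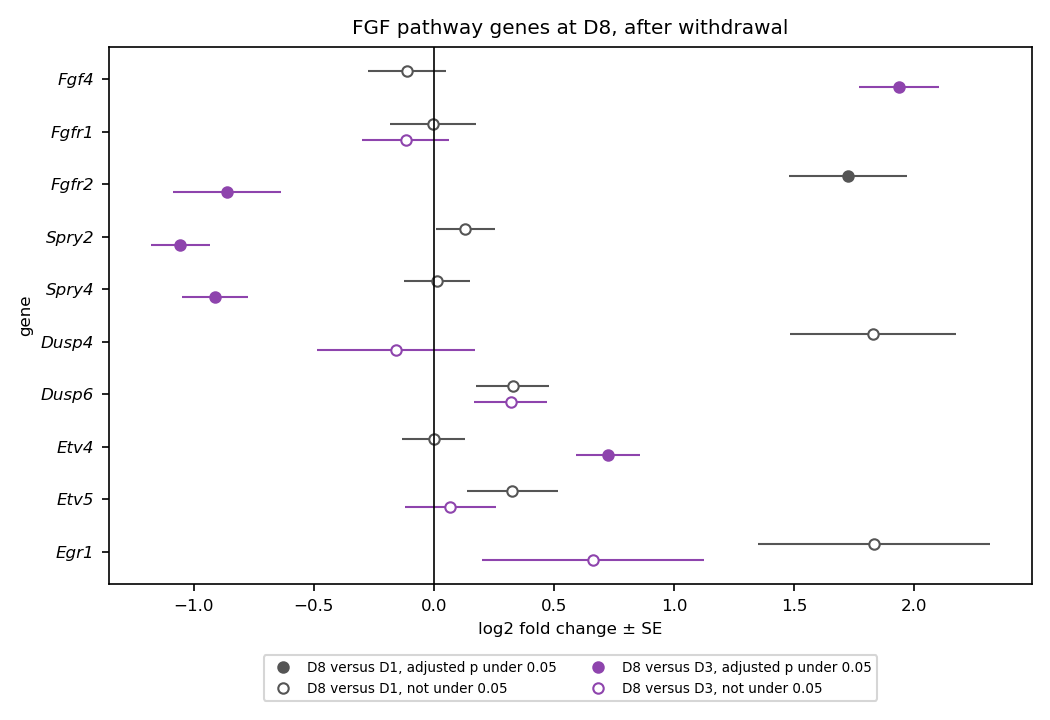
Log2 fold change at D8 over D1 (grey) and at D8 over D3 (purple) for the 10 genes, with ± 1 SE, filled where the adjusted p was under 0.05. Fgf4, Spry2, Spry4 and Etv4 lay near 0 against D1, while Fgfr2 lay at 1.73 and Dusp4 at 1.83.

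Markers of primitive endoderm moved between the groups as well. The summed level of the 10 markers was 1117 and 1821 CPM at D8, against 246 and 353 CPM at D1. Most of it came from Lama1 (395 and 575 CPM at D8) and Col4a1 (475 and 933 CPM). Neither was called at D8 over D1 (adjusted p = 0.0504 and 0.0733 by edgeR). Of the 10, 6 were called higher there, among them Gata4, Gata6 and Sox17, where 0.141% of all genes were. A fit of both groups alone called 3 genes in all there. At D3 the sum was 260 and 373 CPM, which overlapped the sums at D1. Gata6 (2.56-fold) and Pdgfra (2.94-fold) of the 10 were called higher over D1, where 7.92% of all genes were. At D10 the sum was 905 and 1377 CPM, with 1 marker lower and 0 higher than at D8, where 7.65% and 9.27% of all genes were. D8 replicate 2 had the highest sum and the higher Fgfr2 and Dusp4 values of its pair. None of the 10 markers was at 0 in any library, and the lowest was Foxa2 at 0.144 CPM. The 10 trophoblast markers summed to 167 and 351 CPM at D8, against 89.2 and 108 CPM at D1. They summed to 53.8 and 56.8 CPM at D3 and to 71.1 and 188 CPM at D10. In D8 replicate 2 most of the sum came from the keratins Krt8 (123 CPM) and Krt18 (117 CPM), which had 41.1 and 29.4 CPM in D8 replicate 1. Of the 9 trophoblast markers with enough reads, 0 were called at D8 over D1, where 0.177% of all genes were. In each exposure 1 of them fell and 0 rose, where 5.1% and 7.65% of all genes fell and 7.92% and 9.27% rose. The gene that fell was the factor Tead4 in both. Elf5 lay at 0.0956 CPM or less in each library, while Krt8, also expressed in other epithelia, reached 123 CPM at D8. Fibroblast markers summed to 22.5 to 40.3 CPM in all 8 libraries. Twist2 was called higher at D3 over D1 but was scarce, at 0.421 and 0.139 CPM, against 0 CPM in both D1 libraries. At D10 over D8, Fbn1 was called higher and Pdgfrb lower. The part of other cell types in the levels of Fgfr2 and Dusp4 was not tested. The 8 markers of 2-cell-like cells, a rare state of such cultures, rose in both exposures, where 7.92% and 9.27% of all genes did. Their sums were 2317 and 720 CPM at D3, against 80.7 and 43.6 CPM at D1. Of the D3 sums, Zscan4d made 1453 and 405 CPM. At D10 the sums were 506 and 521 CPM, against 6.41 and 12.7 CPM at D8.

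**Figure D4:**
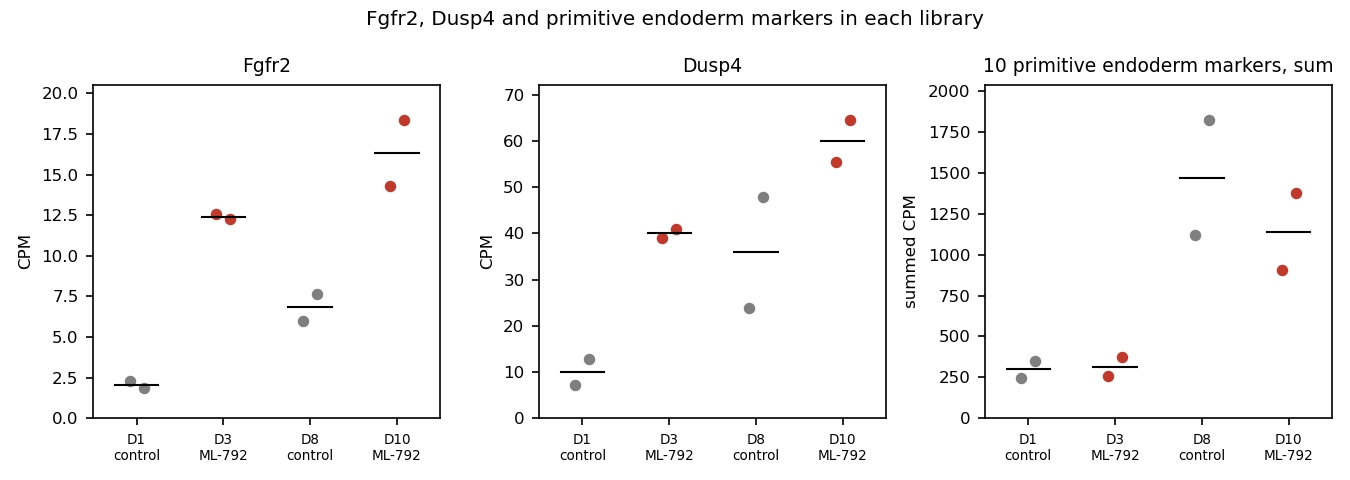
Fgfr2 and Dusp4 (CPM) beside the summed CPM of 10 primitive endoderm markers in the 8 libraries; lines are group means. The marker sum was 1117 and 1821 CPM at D8 and 260 and 373 CPM at D3, and most of it was Lama1 and Col4a1. Fgfr2 had 6.02 and 7.66 CPM at D8 and 12.6 and 12.3 CPM at D3.

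A wider list of 95 measured genes of FGF and ERK signalling was then examined, 82 of which had enough reads. At D3 over D1, 9 of the 82 rose and 2 fell, and at D10 over D8, 12 rose and 3 fell, against the 13% and 16.9% of all genes called. The median log2 fold change of the 82 was 0.03 and then 0.06. Of 24 genes of signal transduction, 1 was called in the first exposure and 4 in the second, which is no more than the shares of all genes. Braf, an ERK-pathway kinase, was the 1 called in both, with 218 and 192 CPM at D3, against 74.8 and 61.8 CPM at D1 (1.58 ± 0.39, adjusted p = 0.0303), and 321 and 178 CPM at D10, against 86.9 and 37.2 CPM at D8 (2.01 ± 0.39, adjusted p = 0.0113). Without D10 replicate 1 the Braf result at D10 did not pass (adjusted p = 0.0566).

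Among 16 further inhibitors, 3 rose in each exposure, where 7.92% and 9.27% of all genes rose, the phosphatase genes Dusp2 and Dusp5 and the Sprouty-related Spred2 in both. Dusp5, which encodes a nuclear phosphatase of ERK, had 34.4 and 32.1 CPM at D3, against 10.4 and 11.1 CPM at D1 (1.63 ± 0.16, adjusted p = 0.00182). It had 45.8 and 38.9 CPM at D10, against 12.1 and 13.6 CPM at D8 (1.72 ± 0.16, adjusted p = 0.000987). Dusp16 fell at D3 (-0.72 ± 0.17, adjusted p = 0.0253) and stood at -0.51 ± 0.16 at D10 (adjusted p = 0.0666). Spry1, another Sprouty gene, stood at -0.19 ± 0.23 and -0.14 ± 0.22 (adjusted p = 0.633 and 0.713). Dusp2, Spred2, Dusp16 and Spry1 are named here after their values were seen.

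Among 18 other ERK-responsive transcription genes, 3 rose and 0 fell in each exposure, where 5.1% and 7.65% of all genes fell and the shares that rose were 7.92% and 9.27%. Fosl1, an AP-1 subunit, had 2.36 and 1.25 CPM at D3, against 0.191 and 0.248 CPM at D1 (2.98 ± 0.53, adjusted p = 0.00944), and 5.15 and 2.8 CPM at D10, against 0.687 and 0.643 CPM at D8 (2.56 ± 0.44, adjusted p = 0.00724). Etv1, the third member of the ETS subfamily of Etv4 and Etv5, had 51.8 and 60.2 CPM at D3, against 14.9 and 16.1 CPM at D1 (1.85 ± 0.28, adjusted p = 0.00599). It had 82.7 and 48 CPM at D10, against 14.6 and 9.46 CPM at D8 (2.44 ± 0.29, adjusted p = 0.00193). Etv1 rose in both exposures, then, where Etv4 fell in the first and Etv5 was called in neither. At D3 the calls of Fosl1 and Etv1 were lost without either D1 library, and that of Fosl1 also without D3 replicate 1 (adjusted p 0.0584 to 0.0806). Jun was the third gene to rise in the first exposure (1.8 ± 0.41, adjusted p = 0.0247) and Myc in the second (0.75 ± 0.18, adjusted p = 0.0236), both named after their values were seen.

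Of the other FGF ligands, 11 of 21 had enough reads. Fgf1 was called in both exposures, with 39.3 and 24 CPM at D3, against 6.98 and 9.97 CPM at D1 (1.89 ± 0.33, adjusted p = 0.00875), and 14.8 and 20.3 CPM at D10, against 6.05 and 3.83 CPM at D8 (1.83 ± 0.33, adjusted p = 0.00877). The Fgf1 call at D3 was lost without either D1 library or without D3 replicate 1 (adjusted p 0.0568 to 0.074). Fgf11, an intracellular member of the family, fell in the first exposure, with 0.631 and 0.488 CPM at D3, against 1.96 and 2.2 CPM at D1 (-1.9 ± 0.41, adjusted p = 0.0187), a call lost without any 1 of these 4 libraries (0.0686 to 0.123). In the second exposure 2 fell, where 7.65% of all genes did. These were Fgf17 (-1.46 ± 0.33, adjusted p = 0.0187) and Fgf3 (-1.46 ± 0.36, adjusted p = 0.0278), the first named after its values were seen. At D8 over D3, Fgf3 was 5.64-fold (adjusted p = 0.00342) and Fgf10 4.5-fold the D3 level (adjusted p = 0.0142). Fgf10 had 5.23 and 4.79 CPM at D8, against 0.589 and 1.6 CPM at D3, and did not pass without D3 replicate 1 (adjusted p = 0.0874). In the same comparison Fgf1 (-2.68 ± 0.34, adjusted p = 0.00156) and Etv1 (-2.22 ± 0.29, adjusted p = 0.00166) were lower. Among 13 further receptors and co-receptors, 1 rose at D3 and 2 at D10, where 7.92% and 9.27% of all genes rose. Those at D10 included Flrt2, a membrane protein that binds FGF receptors. It had 3.77 and 8.15 CPM at D10, against 1.7 and 1.42 CPM at D8 (1.94 ± 0.45, adjusted p = 0.0205). Flrt2 no longer passed when D8 replicate 2 (adjusted p = 0.0922) or D10 replicate 2 (0.107) was left out. At D8 over D1, 0 of the 82 genes were called by edgeR, where 0.177% of all genes were, and at D8 over D3, 18 were higher and 10 lower, where 11.3% and 11.2% of all genes were.

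**Figure D5:**
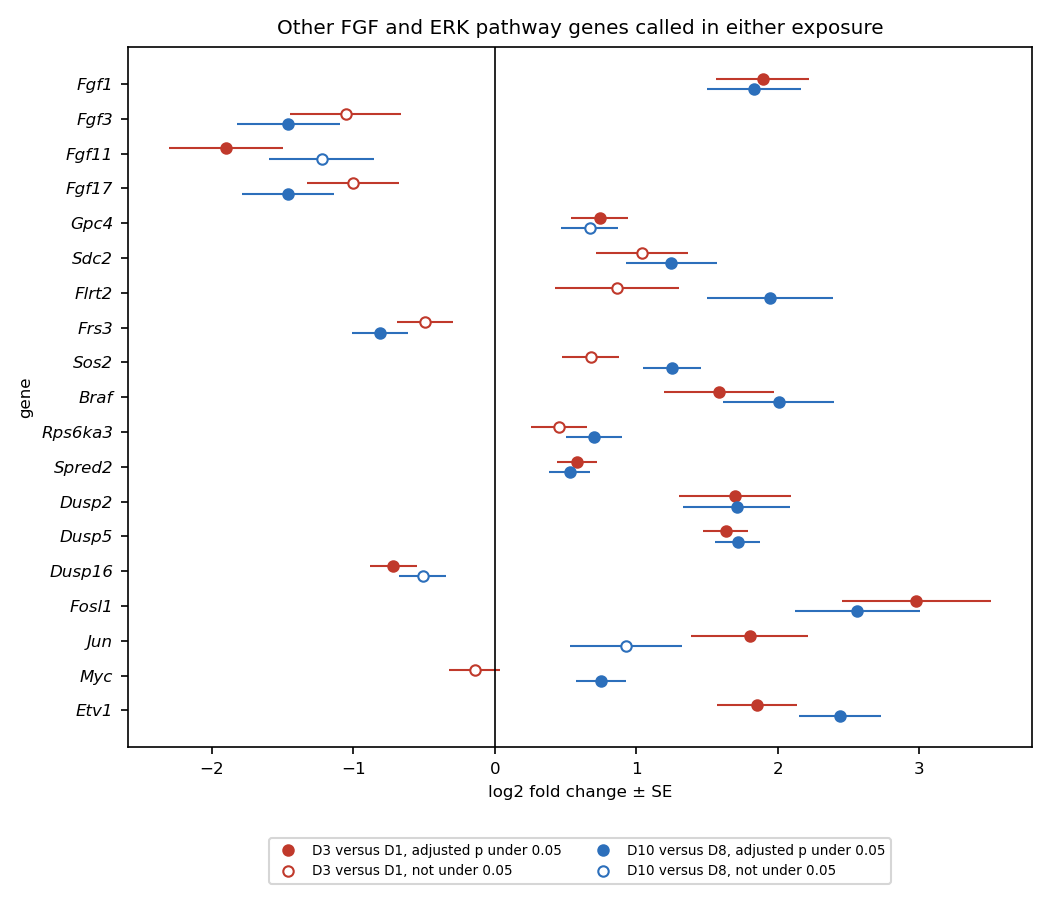
Log2 fold change in the first exposure (D3 over D1, red) and the second (D10 over D8, blue) for the genes of the wider list called in either, with ± 1 SE and filled points at an adjusted p under 0.05. Dusp5 lay at 1.63 and 1.72, and Fosl1 at 2.98 and 2.56.

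Across the 8 libraries, the coding genes whose log2 CPM followed a gene most closely were listed for Fgf4, Fgfr2 and Spry2 among 12689 genes of at least 1 CPM. The libraries share their treatment grouping, and these coefficients are descriptions. Fgf4 was followed by Pdp2 (Pearson r = 0.995) and Gfod1 (r = 0.995). Gfod1 had 6.36 and 6.72 CPM at D3, against 17.9 and 18.9 CPM at D1, and 4.62 and 5.06 CPM at D10, against 16 and 15.4 CPM at D8. Spry2 was followed by Dusp5 (r = 0.997), 2010005H15Rik (r = 0.994) and Thbs2 (r = 0.994). Fgfr2 was followed by Gnao1 (r = 0.989), Atg16l2 (r = 0.989) and Cyb5d2 (r = 0.978), each with a lower level at D8 than at D3 and a lower one at D1 than at D8.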

How the data were processed

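RNA from R1 cells was sequenced at D1, D3, D8 and D10, with 2 libraries at each. The authors deposited raw counts, whole numbers of reads per Ensembl gene. Per the submitters' processing notes, bcl2fastq 2.17.1.14, STAR 2.5.0a, featureCounts and the build mm10 were used. The featureCounts version, annotation release and settings for strand and multiply matching reads are items not given in the sources used here, which leaves shared or overlapping exons less certain. PolyA RNA is the labelled molecule, yet the protocol names a stranded kit for total RNA that removes ribosomal RNA. Symbols, exon lengths and coordinates came from GENCODE M21, which matched 36901 of 36920 identifiers.

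From these counts, edgeR 4.0.16 in R 4.3.3 kept 19173 genes with filterByExpr, scaled by TMM and fitted the 4 groups in 1 quasi-likelihood model with 4 residual degrees of freedom (biological coefficient of variation 19.6%). Tests were 2-sided contrasts. SE is the log2 fold change divided by the square root of F, and intervals are 95%. Alternatives were RLE scaling, other low-count filters, DESeq2 1.42.0, a fit of 2 groups, each library left out, the replicate number as a block, and offsets for GC content and length. The procedure was also run on simulated counts, which lacked the GC trend of these libraries and so cannot vouch for the calls made here.

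The members and lists were chosen with earlier results of these data known. All 10 members are named. Of the wider list up to 4 called genes per comparison are named, those with the largest change, no overlap between libraries and at least 1 CPM, and 3 genes of most similar pattern for each of 3 members. One gene of similar pattern is not reported here. Spry3 has no row in the table.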

Additional observations from a re-analysis of the deposited data

How the results depend on the processing

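Of the member results in the exposures, Fgf4, Fgfr2 and Spry2 were called in all 16 alternatives in both, and Spry4 in all 16 in the second. Over all gene results and alternatives, 863 kept their direction and side of the threshold, 40 lost a call, 29 gained one and 50 changed sign. With 2 libraries a group, 1 library can decide a call, and Fgfr2 and Egr1 at D1 rest on few reads. The cause of these shifts was not tested.

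The replicate numbers were not treated as pairing: the labels do not say what a number marks, only 2 exist, and the differences between replicates correlated between groups at r of 0.101 to 0.498. With the replicate block, 4187 genes were called at D3 over D1 (2496 without), 5298 at D10 over D8 (3244 without), 535 at D8 over D1 (34 without) and 6547 at D8 over D3 (4312 without). Of the 10 genes the block called 7 at D10 over D8, adding Dusp4 (adjusted p = 0.0188), Dusp6 (0.0191) and Etv4 (0.0475), and 3 at D8 over D1. The block with GC content and length correction called 5604, 6024, 642 and 7113 genes in these comparisons, and 2 of the 10 at D8 over D1.

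At D3 over D1, 3847 genes were called with no low-count filter, 4063 in a fit of both groups alone and 3809 with GC content and length correction. At D10 over D8 the fit of both groups alone called 1465. At D8 over D1 the counts were 973 with no filter, 429 with DESeq2, 3 with both groups alone and 94 with GC content and length correction. Of the 10 genes, 3 were called there with no filter, 3 with DESeq2, 2 with GC content and length correction, 0 with a stricter filter and 0 with both groups alone. For the difference between exposures, 66 genes were called with no filter and 3 with DESeq2, and 1 of the 10 with no filter, Dusp4 (-1.244, adjusted p = 0.0181).

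Leaving out each library in turn gave 363 to 3209 genes at D3 over D1, 1407 to 4326 at D10 over D8, 0 to 339 at D8 over D1 and 1522 to 5826 at D8 over D3. Of the 10 genes it called 3 to 6, 4 to 6, 0 to 2 and 3 to 5.

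None of the results that changed sign was called in the fit reported; the values are log2 fold changes. Dusp6 at D3 over D1 was -0.004407 with no filter, -0.004627 with both groups alone, -0.04216 with GC content and length correction and -0.03987 with the block added. At D8 over D1, Fgfr1 was 0.01824 with no filter and 0.006024 with the block, and Etv4 was 0.02524 with no filter. There Spry4 was -0.002223 with the stricter filter, -0.1345 with GC content and length correction and -0.1346 with the block added. Etv5 at D8 over D3 was -0.1239 with that correction and -0.12 with the block added. For the difference between exposures, Fgfr1 was 0.001852 with RLE scaling, 0.009379 with the stricter filter, 0.001862 with DESeq2 and 0.1837 with GC content and length correction, with or without the block. Spry2 was 0.002723, 0.01201 and 0.002749 under RLE scaling, the stricter filter and DESeq2. Spry4 was 0.05748 with GC content and length correction and 0.05726 with the block added.

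When single libraries were left out, the values that crossed 0 ran from -0.008156 to 0.5689 for Egr1 at D10 over D8. At D3 over D1 they ran from -0.1176 to 0.1262 for Dusp6 and from -0.1259 to 0.3805 for Fgfr1. At D8 over D1 they ran from -0.02473 to 0.02432 for Etv4, -0.2632 to 0.05586 for Fgf4, -0.2284 to 0.2625 for Fgfr1 and -0.1184 to 0.1329 for Spry4. At D8 over D3 they ran from -0.7269 to 0.2581 for Dusp4, -0.1347 to 0.3003 for Etv5 and -0.22 to 0.01048 for Fgfr1. For the difference between exposures they ran from -0.2701 to 0.2083 for Fgfr1, -0.06449 to 0.04291 for Spry2 and -0.1556 to 0.08221 for Spry4.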
